A study of Homo sapiens with 31 samples.

Results

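Circular RNAs (circRNAs) made from the zinc finger genes of human chromosome 19 are described here in embryonic stem cells and their retinal derivatives. A circRNA was counted as a member if its back-splice junction lay on chromosome 19 and its named transcript belongs, in the GENCODE annotation on hg19, to a gene whose symbol is ZNF followed by a digit. Of 55371 circRNAs in the deposited table, 88 from 59 genes met this rule (0.159%), and they held 2857 of 1029205 back-splice reads (0.278%). They were compared with 356 circRNAs of ZNF genes on other chromosomes and with the other 1096 circRNAs of chromosome 19. The study differentiated H9, a single line of human embryonic stem cells, towards retina, and sequenced ribosome-depleted total RNA. The 5 groups were undifferentiated cells (day 0), untreated cultures at day 45 and day 90, and cultures at day 45 and day 90 that had received recombinant IGF-1 at 5 ng/ml to day 37 and 10 ng/ml afterwards. Each group had 3 replicate cultures of this line, 15 libraries in all, so p-values measure the spread between cultures of 1 line. Whole cultures were harvested, and in such bulk samples fewer cells of a type and less RNA per cell cannot be told apart.

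Most zinc finger proteins of this chromosome belong to the KRAB family. A KRAB domain near the N terminus recruits the corepressor TRIM28 and, through it, the histone methyltransferase SETDB1, while a tandem array of C2H2 zinc fingers, usually encoded by 1 long last exon, binds DNA. Many of these proteins silence transposable elements, and their genes lie in clusters that grew by tandem duplication, so that neighbours share much of their sequence. A circRNA forms when a downstream splice donor joins an upstream acceptor, and the read across that back-splice junction is what was counted. CircRNAs are named below by gene, donor exon and acceptor exon of the named transcript, so that circZNF730:E3-E2 joins the end of exon 3 to the start of exon 2.

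The junctions of the 6 most abundant members are shown because the levels described below rest on reads across these bases. Each is read 5′ to 3′ from the donor exon into the acceptor exon, on the gene's strand and from the reference genome hg19, and the capitals mark the 2 bases on either side of the back-splice. The circles lie on chromosome 19 at 37408481 to 37428144 (ZNF568, plus strand), 23316882 to 23318845 (ZNF730, plus), 52785364 to 52786666 (ZNF766, plus), 22255611 to 22256366 (ZNF257, plus), 58436991 to 58439415 (ZNF418, minus) and 31038850 to 31040421 (ZNF536, plus).
circZNF568:E5-E2: ggaggcactgtccAGATctgtgtcttgtaa
circZNF730:E3-E2: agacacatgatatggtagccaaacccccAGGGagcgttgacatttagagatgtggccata
circZNF766:E3-E2: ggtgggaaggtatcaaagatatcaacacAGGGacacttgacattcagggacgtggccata
circZNF257:E3-E2: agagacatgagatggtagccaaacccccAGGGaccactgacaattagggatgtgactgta
circZNF418:E3-E3: tggccagaggaatTGGTtgttggtgtggat
circZNF536:E4-E4: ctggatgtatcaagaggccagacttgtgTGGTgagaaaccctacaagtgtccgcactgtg
The ends of circZNF568:E5-E2 also match exon ends of a second annotated gene, so its reads are given under the named transcript only.

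By annotation, the members were short circles of few exons. A back-splice read shows only the donor and acceptor exons. The exons, spliced lengths and motifs given for a circle are therefore those annotated on the named transcript between its ends. Exon skipping or intron retention inside a circle was not tested. Their median was 2 exons and 292.5 spliced bases (range 70 to 3897), against 4 exons and 512 bases over all circRNAs that could be placed on an annotated transcript, 3 exons and 502 bases for ZNF circRNAs of other chromosomes, and 3 exons and 368.5 bases for other circRNAs of chromosome 19. Circles of 2 exons made up 39 of 88 members (44.3%), against 99 of 353 for ZNF circRNAs of other chromosomes, 332 of 998 for other circRNAs of chromosome 19 and 10173 of 48343 for all. The first exon of the transcript was in none of the 88 circles and the last exon in 1. The circle started at exon 2 in 50 members and at exon 3 in 22, and the genomic bases that flank the circle were AG before it and GT after it in 88 of 88. Of 356 ZNF circRNAs of other chromosomes, 1 held the first exon, 0 held the last and 350 had these flanks. The caller searched junctions of annotated exons, so the flanks and the lack of end exons were largely fixed in advance. Differences between these sets are a description, since the members of a gene share exons and the genes share ancestry.

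A single exon length ran through most of them. An exon of 127 bases was in 59 of 88 members (67.0%), which held 2426 reads or 84.9% of the members' reads, and this length was singled out after the exon lengths were seen. It was in 14.9% of ZNF circRNAs of other chromosomes, 2.00% of other circRNAs of chromosome 19 and 3.98% of all circRNAs with an annotated transcript. The ZNF circRNAs of other chromosomes come less often from KRAB transcripts, as given below. In 14 members of 14 genes, ZNF730, ZNF257, ZNF431, ZNF91 and ZNF254 among them, the circle was this exon followed by 1 of 96 bases, 223 bases in all and 874 reads. In 6 members, of ZNF766, ZNF480, ZNF880, ZNF528, ZNF160 and ZNF610, it was followed by an exon of 129 bases (510 reads). circZNF568:E5-E2 held the 127 and 96 base exons behind 2 more, of 70 and 59 bases. Over all circRNAs, 68 circles of 2 exons were 223 bases long, and 24 of these came from ZNF genes.

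**Figure D1:**
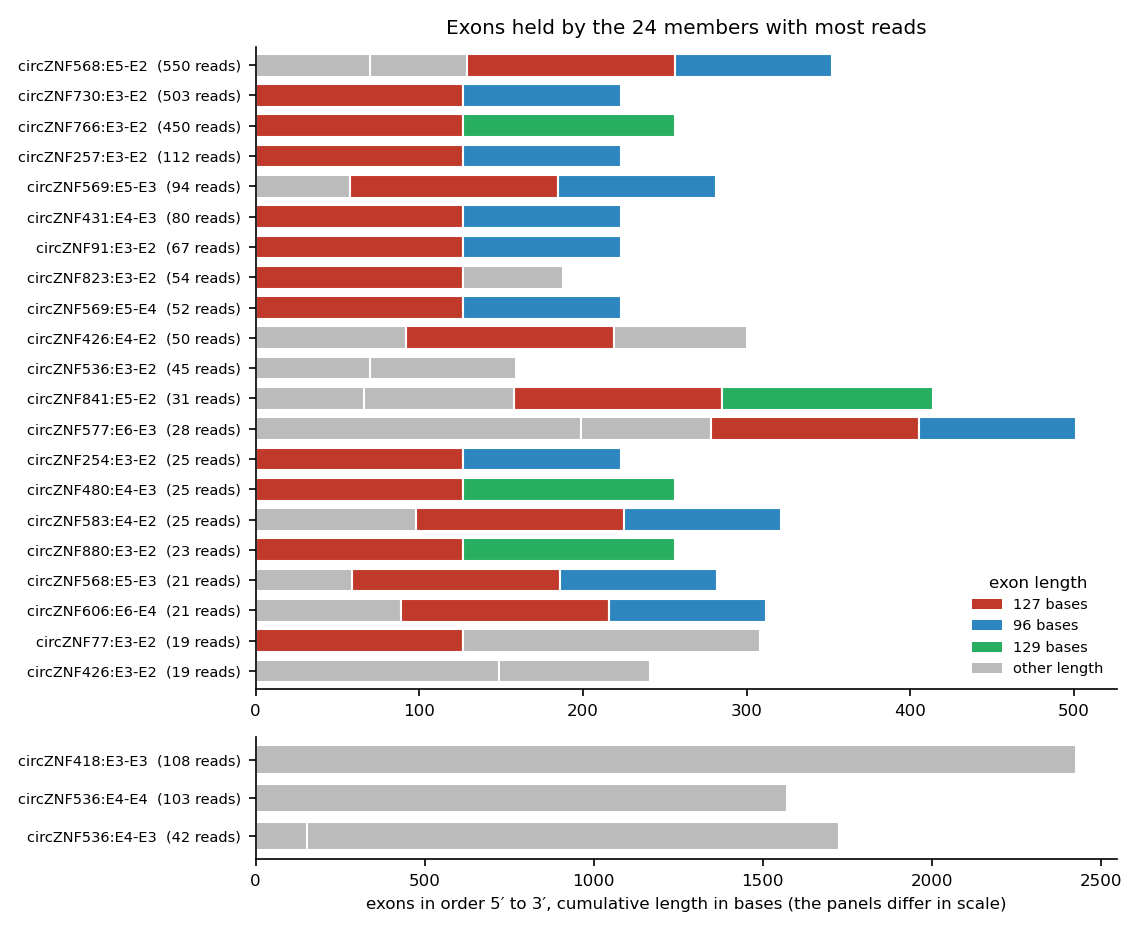
Annotated exons between the back-splice ends of the 24 members with most reads, drawn 5′ to 3′ as stacked bars in bases. The 3 longest circles are in a panel of their own scale, and the read total of each circle is beside its name. The exon of 127 bases (red) recurs with an exon of 96 (blue) or 129 bases (green), while circZNF418:E3-E3 and 2 circles of ZNF536 hold 1 long exon.

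By annotation, the exons in the circles were mostly those before the finger array. A letter match to the KRAB A box was found in the transcripts of 55 members and inside the circle in 48 of them (87.3%), which held 62.9% of the members' reads. In ZNF circRNAs of other chromosomes it was inside the circle in 33 of 47 (70.2%). C2H2 finger motifs were found in the transcripts of 70 members, and inside the circle in 11 of them (15.7%), with 10.3% of the reads. In ZNF circRNAs of other chromosomes the circle held fingers in 157 of 309 (50.8%). The 2 sets differ in gene type, since a KRAB match was in the transcript for 55 of 88 members and 47 of 356 elsewhere. Where the transcript had both motifs, the circle held the KRAB match without fingers in 40 of 45 members and 27 of 36 elsewhere. No member held both, and neither did any ZNF circRNA of other chromosomes. The start codon was in 39 circles, and 37 were coding throughout. The members that did hold fingers came from 5 genes, ZNF418, ZNF536, ZNF507, ZNF653 and ZNF550. circZNF418:E3-E3, a single exon of 2425 bases, held all 17 fingers of its transcript, and circZNF536:E4-E4, a single exon of 1572 bases, held 2 of 11. In 18 members, circZNF91:E3-E2 and circZNF880:E3-E2 among them, the named transcript shows no finger motif, so the zinc finger label rests there on the gene alone.

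Duplicated genes left several junctions nearly alike, and these are shown next because several of the patchy counts described below belong to them. Junctions of 60 bases (30 from each side) were compared with every other junction in the table, and 15 members matched another at 85% identity or more, the identity that the study's junction caller required. They held 879 reads (30.8% of the members' reads). In the first set the capitals mark bases that differ from circZNF254:E3-E2. The circles lie at 24288742 to 24289445 (ZNF254, plus strand), 23556544 to 23557566 (ZNF91, minus), 23844916 to 23845960 (ZNF675, minus) and 21349138 to 21350469 (ZNF431, plus).
circZNF254:E3-E2: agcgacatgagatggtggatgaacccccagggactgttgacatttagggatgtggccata
circZNF91:E3-E2: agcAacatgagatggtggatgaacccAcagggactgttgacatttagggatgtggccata
circZNF675:E3-E2: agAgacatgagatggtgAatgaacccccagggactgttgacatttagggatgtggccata
circZNF431:E4-E3: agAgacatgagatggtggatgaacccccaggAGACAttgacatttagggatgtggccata
The ZNF91 and ZNF675 junctions each differed from that of ZNF254 at 2 of 60 bases, and the ZNF431 junction at 6.

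The second set lies within 1 cluster of neighbouring genes, at 52817406 to 52819215 (ZNF480), 52876364 to 52877680 (ZNF880), 52909160 to 52909896 (ZNF528) and, as above, ZNF766, all on the plus strand. Here the capitals mark bases that differ from circZNF480:E4-E3.
circZNF480:E4-E3: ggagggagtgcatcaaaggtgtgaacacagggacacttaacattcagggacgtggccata
circZNF880:E3-E2: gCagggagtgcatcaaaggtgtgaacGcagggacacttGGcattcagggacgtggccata
circZNF528:E6-E5: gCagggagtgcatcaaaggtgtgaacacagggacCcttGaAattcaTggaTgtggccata
circZNF766:E3-E2: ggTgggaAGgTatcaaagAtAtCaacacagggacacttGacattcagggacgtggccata
The ZNF880, ZNF528 and ZNF766 junctions differed from that of ZNF480 at 4, 6 and 8 of 60 bases. Beyond these sets, the ZNF257 junction matched that of ZNF92 on chromosome 7 at 54 of 60 bases, and the ZNF823 junction matched a junction of an unnamed gene at 51.

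Few of the zinc finger genes of this chromosome gave a circRNA. Of 249 annotated coding ZNF genes, 58 did (23.3%), and 28 of these reached 10 reads. The share was 34.6% for ZNF genes of other chromosomes, 25.6% for other coding genes of chromosome 19 and 37.1% for all coding genes. Per annotated gene, this came to 11.4 reads on chromosome 19 and 58.8 reads for ZNF genes elsewhere. The remaining member gene, ZNF8-ERVK3-1, is annotated as a long non-coding readthrough gene and had 13 reads. Of the 59 genes, 42 gave 1 circRNA each. ZNF536, a zinc finger gene known from the developing brain, gave 6, ZNF568 and ZNF426 gave 4, and ZNF569, ZNF507, ZNF224 and ZNF45 gave 3.

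The reads came from a handful of loci. The 3 most abundant circles held 1503 reads (52.6%) and the top 10 held 74.2%, while 54 members with under 10 reads each held 172 reads together and 19 had 1 read. Split at gaps of over 1000000 bases, the genes formed 15 clusters. The cluster from 21264965 to 24312770, with 8 member genes of 24 annotated ZNF genes (ZNF714, ZNF431, ZNF257, ZNF730, ZNF91, ZNF675, ZNF681 and ZNF254), held 807 reads. The cluster from 36936021 to 38210662, with 9 member genes of 23 including ZNF568 and ZNF569, held 791, and that from 52074536 to 53662328, with 14 of 32 including ZNF766, held 601. ZNF536, alone in its interval, held 218 reads. The cluster from 11594242 to 12744654 had no read at day 0 and 0.0974 ± 0.0731 RPM (SD, n = 3) at day 45, where RPM is back-splice reads per 1000000 sequenced reads.

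Depth limits what single circles can show. A library held 14992 to 108946 back-splice reads in all and 29 to 312 reads of members, with the 3 day 0 libraries lowest on both counts, and RNA integrity numbers ran from 9.8 to 10 at day 0, 7.6 to 9.1 at day 45 and 7.1 to 8.9 at day 90. The part of RNA integrity in any change from day 0 was not tested. Of the 88 members, 34 reached 10 summed reads and were tested, and 64 had no read at day 0. Markers of cell type gave few back-splice reads. Of 12 pluripotent genes 5 had any, with 1 to 3 reads in a day 0 library, 0 at day 45 and 0 to 2 at day 90, and POU5F1 and NANOG were at 0 throughout. Of 12 retina genes 3 had any, with 0 reads at day 0 and 3 to 9 in an untreated day 90 library, and CNGB3, a cone channel gene, had 4, 3 and 7 of these. Of 6 genes of the pigment epithelium 3 had any (TYR, BEST1 and TYRP1), with 0 reads at day 0 and 0 to 4 in an untreated library after it, and 3 of 6 genes of other cells (COL1A1, COL1A2 and TTN) gave at most 3 reads in a library. The part of cell type in the changes below was not tested.

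The members' share of all back-splice reads was low in every library. In the day 0 libraries it was 0.193, 0.198 and 0.240%, and in the untreated day 45 libraries 0.286, 0.307 and 0.286%. With IGF-1 at day 45 it was 0.355, 0.276 and 0.292%. At day 90 it was 0.334, 0.222 and 0.265% untreated and 0.265, 0.235 and 0.279% with IGF-1. The day 45 libraries lay above the 3 day 0 libraries, whereas the day 90 libraries overlapped them, and single 95% Wilson intervals, which cover counting error only, were as wide as 0.178 to 0.323% at day 0. The day 45 share was lower without ZNF568. Without that gene, a choice made after its values were seen, the means were 0.211% at day 0 and 0.236% at day 45, against 0.211 ± 0.0255% and 0.293 ± 0.0124% with it (SD, n = 3). Without the members whose junction is alike another, the day 0 libraries held 0.0926 to 0.123%, the untreated day 45 libraries 0.158 to 0.208% and the untreated day 90 libraries 0.183 to 0.252%, so that day 90 no longer overlapped day 0.

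**Figure D2:**
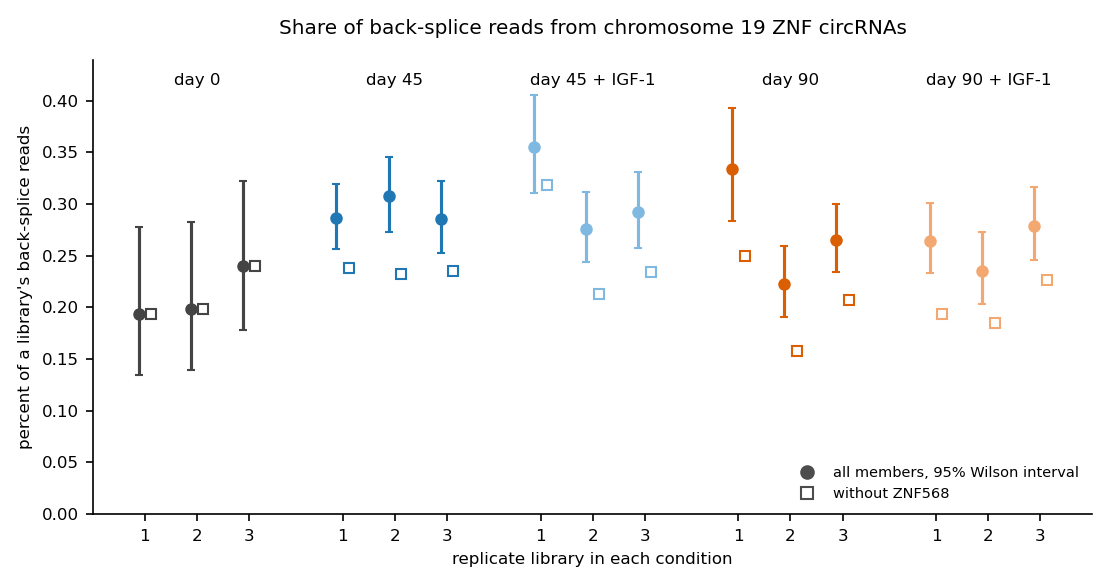
Percent of each library's back-splice reads that came from the 88 members (filled circles, with 95% Wilson intervals) and from the members without ZNF568 (open squares), by condition and replicate. The 3 day 45 libraries lie between 0.286 and 0.307%, above the day 0 libraries, and the group means of the squares lie between 0.202 and 0.255%.

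Relative to sequenced reads, members were higher after day 0, as were back-splice reads as a whole. They summed to 0.250 ± 0.0503 RPM at day 0, 2.18 ± 0.563 RPM at day 45 and 1.28 ± 0.303 RPM at day 90 (SD, n = 3), which is 8.74 and 5.12 times the day 0 mean. All back-splice reads were 6.33 and 4.11 times their day 0 mean in the same groups, and the sums were not tested. ZNF circRNAs of other chromosomes held 1.72, 1.51 and 1.47% of back-splice reads at day 0, 45 and 90.

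From day 0 to day 45, 16 of 34 tested members rose (47.1%) and none fell, by edgeR's quasi-likelihood test with Benjamini-Hochberg adjustment over 12498 circRNAs. Over all circRNAs tested, 40.9% rose and 0.256% fell. The members' median fitted log2 change was 2.80 and that of all circRNAs 2.87, with circRNAs that had no read at day 0 included. A bounded median set a group at 0 to 3 reads and kept circRNAs with over 3 reads in either group. It was 2.60 over 26 members and 1.98 over 9987 circRNAs. How far members stood from the general shift thus depended on the measure. In 11 of the 16 the 3 libraries of day 45 lay above the 3 of day 0, and in the other 5 (circZNF91:E3-E2, circZNF823:E3-E2, circZNF254:E3-E2, circZNF480:E4-E3 and circZNF880:E3-E2) the groups overlapped. In all 13 of 34 members did not overlap, against 46.2% of all circRNAs. Scaling to the back-splice reads themselves lowered the fitted median over all circRNAs to 1.60 with TMM factors and 1.24 with DESeq2 size factors. The members' median was 1.80 with size factors. Calls among members fell to 4 with TMM factors. With size factors they fell to 1 of 34, where 2.57% of all circRNAs rose and 1.51% fell. The 4 were circZNF568:E5-E2, circZNF536:E4-E4, circZNF569:E5-E3 and circZNF91:E3-E2, and the 1 was circZNF568:E5-E2.

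ZNF568, a KRAB gene whose mouse counterpart represses a placental transcript of Igf2, gave the largest fitted change of the members. circZNF568:E5-E2 had 0, 0 and 0 reads at day 0, then 50, 64 and 41 at day 45 and 35, 46 and 53 at day 90. With IGF-1 it had 20, 58 and 48 reads at day 45 and 63, 32 and 40 at day 90. Every differentiated library thus held at least 20 reads and no day 0 library held any. A count of 0 allows up to 3 reads over the 3 day 0 libraries, and against that limit the level was at least 53.2-fold higher at day 45 (adjusted p = 2.56e-18) and at least 42.3-fold higher at day 90 (adjusted p = 6.56e-16). Its mean was 0.398 ± 0.102 RPM at day 45 and 0.310 ± 0.0503 RPM at day 90 (SD, n = 3). The smaller circle circZNF568:E5-E3, which lacks exon 2, had 21 reads in all, with 2, 3 and 2 at day 45 (adjusted p = 0.0356), and lost the call without any single day 0 library or without day 45 replicate 1 or 2.

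ZNF730, ZNF766 and ZNF257 already had circles in stem cells. circZNF730:E3-E2 had 7, 6 and 5 reads at day 0, 42, 54 and 39 at day 45 and 25, 40 and 39 at day 90. It rose 7.72-fold to day 45 (95% exact counting interval 4.70 to 13.4; log2 change 2.93 ± 0.51 SE, adjusted p = 3.43e-07) and 5.47-fold to day 90 (adjusted p = 7.02e-05). circZNF766:E3-E2 had 8, 9 and 19 reads at day 0, the highest of any member there, and 34, 47 and 35 at day 45. Its log2 change of 1.73 ± 0.48 SE (adjusted p = 0.00177) turned to -0.0048 with TMM factors and to -0.59 with DESeq2 size factors, so that relative to back-splice reads as a whole it was not higher.

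circZNF257:E3-E2 was also found in all 15 libraries, at lower depth. It had 3, 4 and 2 reads at day 0 and 16, 10 and 7 at day 45, a log2 change of 1.92 ± 0.69 SE (adjusted p = 0.0190) that turned to -0.45 with DESeq2 size factors and that lost its call without day 0 replicate 3 or without day 45 replicate 1. circZNF431:E4-E3 had 2, 2 and 0 reads at day 0 and 6, 8 and 9 at day 45 (log2 change 2.45 ± 0.85 SE, adjusted p = 0.0146), a call lost without day 0 replicate 3. Both junctions are among those alike another.

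**Figure D3:**
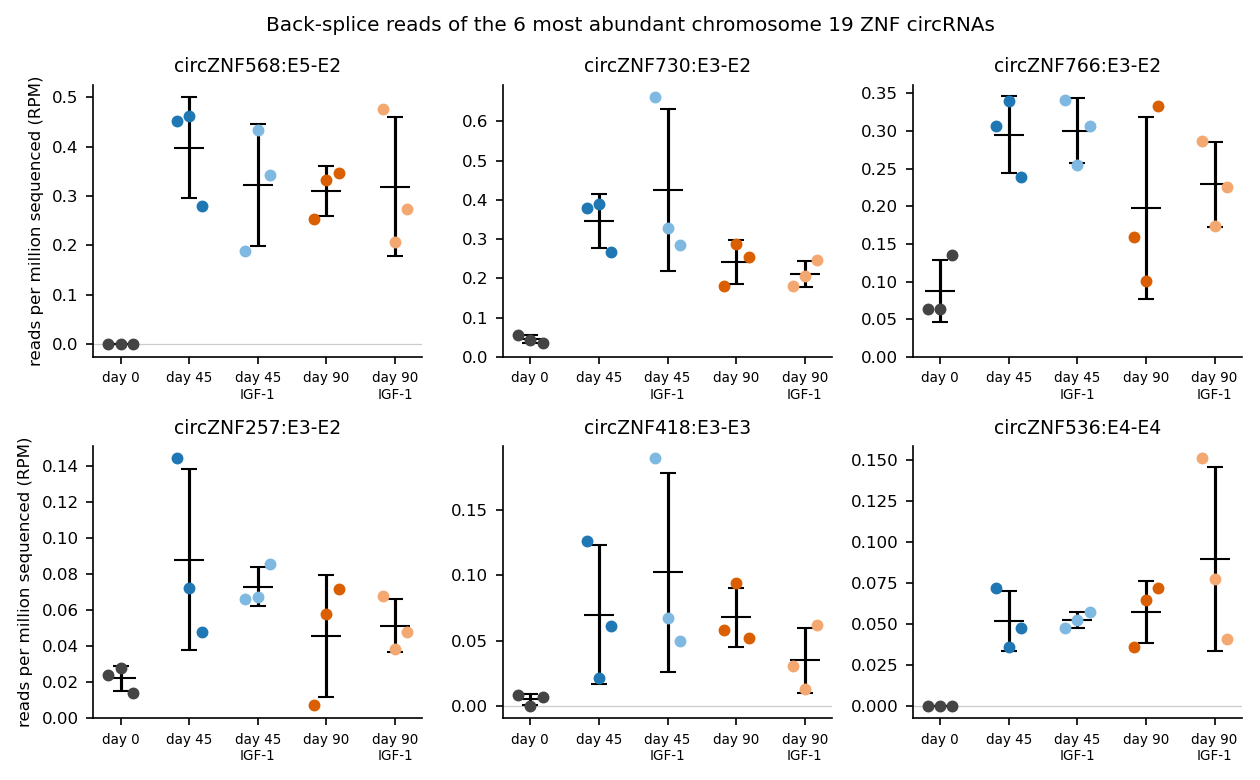
Back-splice reads per 1000000 sequenced reads (RPM) for the 6 most abundant members, with a point for each library and the mean and SD of the 3 libraries of each condition. circZNF568:E5-E2 and circZNF536:E4-E4 are at 0 in the 3 day 0 libraries, and the treated and untreated libraries of each day overlap in all 6 panels.

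Circles that hold zinc fingers were among those that rose. circZNF418:E3-E3, the single exon with 17 fingers, had 1, 0 and 1 reads at day 0, 14, 3 and 9 at day 45 and 8, 13 and 8 at day 90. The ratio of day 45 to day 0 was 13.4 with an exact counting interval from 3.35 to 116 (adjusted p = 0.000643). ZNF536 had no read at day 0 in any of its 6 circles. circZNF536:E4-E4 had 8, 5 and 7 reads at day 45 and 5, 9 and 11 at day 90 (at least 6.86-fold and 7.89-fold higher, adjusted p = 9.62e-05 and 6.32e-05). circZNF536:E3-E2, from 2 non-coding exons near the start of the gene, had 6, 4 and 5 reads at day 45 (adjusted p = 0.00156), and circZNF536:E4-E3 had 3, 4 and 4 (adjusted p = 0.00628). Summed over the gene, ZNF536 had 19, 13 and 18 reads at day 45, at least 17.2-fold more than day 0 allows.

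ZNF569 gave a pair of circles that share a donor and differ by 1 exon. circZNF569:E5-E3 had 0, 0 and 0 reads at day 0 and 16, 5 and 4 at day 45 (at least 8.58-fold higher, adjusted p = 1.72e-05), while circZNF569:E5-E4 had 0, 0 and 3 at day 0 and 4, 6 and 5 at day 45 (adjusted p = 0.0547). The difference between the pair was not tested. circZNF426:E4-E2 was found in all 15 libraries at 1 to 8 reads and did not pass the test (log2 change 1.47 ± 0.92 SE, adjusted p = 0.166), with a value of -0.21 under TMM factors and -0.79 under DESeq2 size factors.

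**Figure D4:**
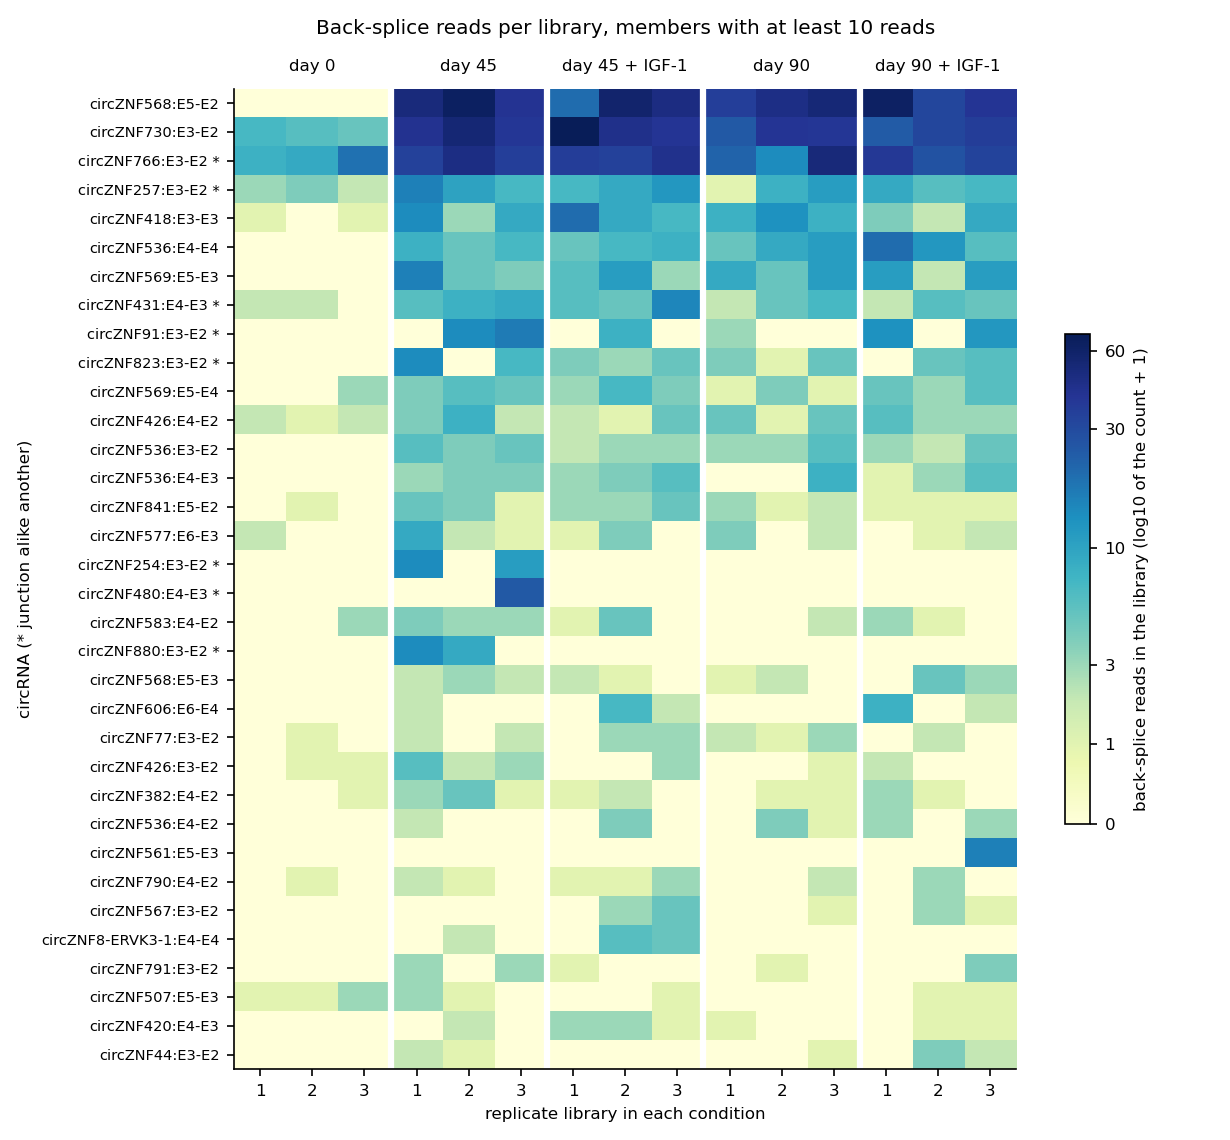
Back-splice reads of the 34 tested members (rows, most abundant first) in each of the 15 libraries (columns), coloured by log10 of the count plus 1, with an asterisk on members whose junction is alike another. The first 3 rows are dark in every differentiated library, 19 rows are at 0 throughout day 0, and circZNF254:E3-E2, circZNF480:E4-E3 and circZNF880:E3-E2 have reads in day 45 libraries only.

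Of the 5 members whose groups overlapped despite a call, circZNF823:E3-E2 had its 54 reads in 10 libraries and the other 4 had theirs in 1 to 6. circZNF480:E4-E3 had all of its 25 reads in day 45 replicate 3, and without that library it had no reads to test. circZNF880:E3-E2 had 14 and 9 reads in day 45 replicates 1 and 2 and none elsewhere. Without day 45 replicate 1 it fell below the 10 reads needed and was not tested. circZNF254:E3-E2 had 14 and 11 reads in day 45 replicates 1 and 3 and none elsewhere. Of 2048 circRNAs with 20 to 29 reads, circZNF480:E4-E3 was the 1 found in a single library, and it, circZNF254:E3-E2 and circZNF880:E3-E2 were the 3 found in at most 2, where the median was 10 libraries. circZNF91:E3-E2, of a gene whose protein represses SVA retrotransposons, had 67 reads in 6 libraries, and 4 of 1733 circRNAs with 50 to 99 reads, itself included, were found in so few, against a median of 13.

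All 4 of these junctions are among the alike ones shown above. ZNF480 had its reads in the day 45 library in which ZNF880 had 0, whereas ZNF254 and ZNF91, with 11 and 17 reads, were both found in day 45 replicate 3. Summed, ZNF480 and ZNF880 had 14, 9 and 25 reads at day 45 and none in any other group. With ZNF528 and ZNF766 added, the set of 4 had 8, 9 and 19 reads at day 0 and 48, 57 and 61 at day 45. This was 0.0876 ± 0.0415 and 0.420 ± 0.0113 RPM (SD, n = 3), and the set was found in all 15 libraries. ZNF766 held 450 of its 504 reads, gave all of its day 0 reads and was itself found in all 15 libraries. The sum therefore cannot show whether pooling evens out the patchy counts. ZNF254, ZNF91 and ZNF675 together had 0, 0 and 0 reads at day 0, 14, 14 and 28 at day 45, 6, 0 and 0 at day 90, 0, 8 and 0 with IGF-1 at day 45 and 13, 6 and 12 with IGF-1 at day 90. Whether reads of one gene were assigned to another was not tested.

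Patchy counts were not limited to alike junctions. circZNF561:E5-E3, whose junction matched no other in the table at 85%, had all of its 16 reads in replicate 3 of day 90 with IGF-1. It was 1 of 5 among 5032 circRNAs with 10 to 19 reads that were found in a single library. circZNF606:E6-E4 had 21 reads in 5 libraries and circZNF8-ERVK3-1:E4-E4 13 reads in 3. These members were chosen for their spread after it was seen.

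**Figure D5:**
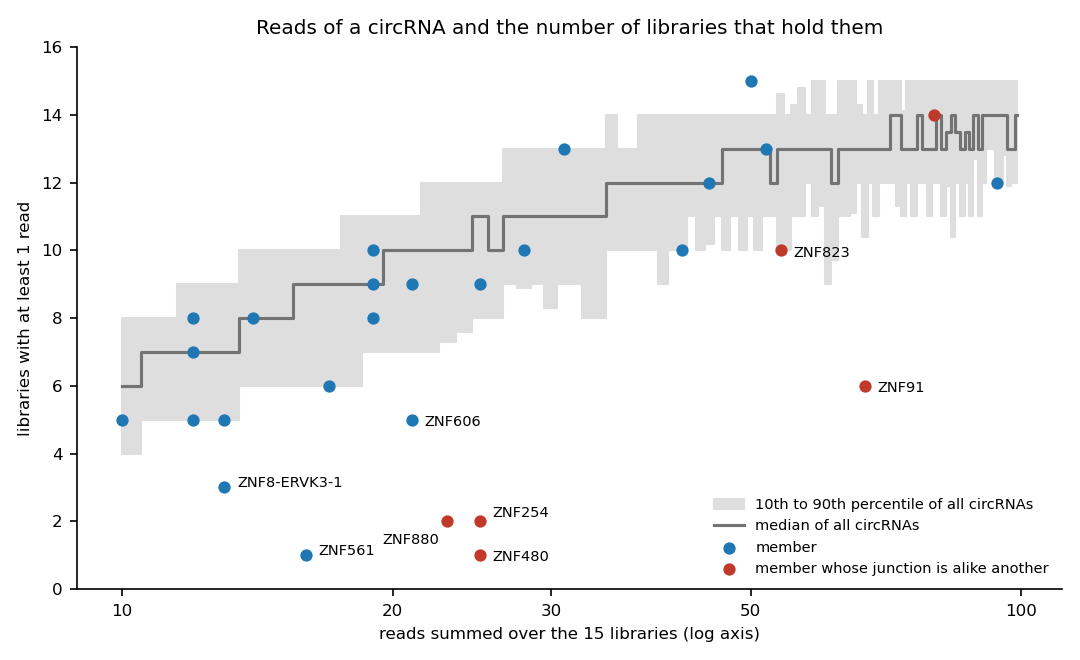
Number of libraries with at least 1 read against the summed reads (log axis) for members with 10 to 99 reads (points, red where the junction is alike another), with the median and the 10th to 90th percentile of all circRNAs of the same total. The circles of ZNF480, ZNF561, ZNF254, ZNF880, ZNF91, ZNF606 and ZNF8-ERVK3-1 lie below the grey band.

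From day 0 to day 90, 8 of 34 members rose (23.5%) and none fell, where 21.7% of all circRNAs tested rose and 0.328% fell. The median fitted log2 change was 1.72 for members and 2.33 for all. The bounded median was 1.69 over 18 members and 1.51 over 8485 circRNAs. The 8 were circZNF568:E5-E2, circZNF730:E3-E2, circZNF418:E3-E3, circZNF569:E5-E3, circZNF823:E3-E2 and 3 circles of ZNF536. In 7 of them the groups did not overlap, and in all 9 of 34 did not, against 32.4% of all circRNAs. circZNF823:E3-E2 had 0, 0 and 0 reads at day 0 and 4, 1 and 5 at day 90, and was at least 3.15-fold higher (adjusted p = 0.0145), a call lost without day 0 replicate 2 or 3 or day 90 replicate 3. circZNF536:E4-E3 had 0, 0 and 8 reads at day 90, and its call (adjusted p = 0.0345) was lost without day 90 replicate 3 or without any single day 0 library. Under TMM factors, and also under DESeq2 size factors, 3 of the 8 calls were left. Size factors left 2.88% of all circRNAs tested as risen. circZNF766:E3-E2 had 22, 14 and 51 reads at day 90 and did not pass (adjusted p = 0.0629).

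Between day 45 and day 90, 1 member fell and none rose, where 0.064% of all circRNAs tested fell and 0.016% rose. It was circZNF254:E3-E2, whose 25 reads at day 45 met none at day 90 (at least 9.06-fold lower, adjusted p = 0.0461, 0.00809 to 0.783 when 1 library was left out). The call was lost without any single day 90 library, and without day 45 replicate 1 or 3. It was also lost in the replicate block, under both other scalings and with no filter. The filter of at least 50 reads left this circle untested, and the DESeq2 Wald test gave it no adjusted p. The members' median log2 change was -0.88 and that of all circRNAs -0.61, and 29 of 34 had a fitted value below 0. In 4 of 34 the day 90 libraries lay below those of day 45 without overlap, against 13.2% of all circRNAs. circZNF568:E5-E2 differed by -0.35 ± 0.43 (SE) on the log2 scale, circZNF730:E3-E2 by -0.51 ± 0.43 and circZNF766:E3-E2 by -0.57 ± 0.44, with adjusted p of 0.837, 0.763 and 0.717.

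No member passed the test of IGF-1 at either day. At day 45, edgeR called 0 of 34 members, against 0.016% of all circRNAs, with 5 of 34 at an unadjusted p under 0.05, where 572 of 12498 circRNAs were, and DESeq2 called 0. The lower 4 of these 5 were circZNF91:E3-E2, circZNF254:E3-E2, circZNF480:E4-E3 and circZNF880:E3-E2, and the higher was circZNF567:E3-E2. Leaving out day 45 replicate 1, 2 or 3 raised the count to 1, 2 and 1, all among circZNF254:E3-E2, circZNF480:E4-E3 and circZNF880:E3-E2. The shares over all circRNAs in those fits are not given here. At day 90, edgeR called 0 members, against 0.008% of all circRNAs, with 3 of 34 at an unadjusted p under 0.05, where 521 of 12498 were, and DESeq2 called 0. The 3 were circZNF91:E3-E2, circZNF606:E6-E4 and circZNF561:E5-E3, all higher with IGF-1. Treated and untreated libraries failed to overlap in 1 of 34 members at day 45, circZNF536:E3-E2 with 6, 4 and 5 reads untreated and 2, 3 and 3 treated, against 5.89% of all circRNAs lower in this way.

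The abundant circles gave the smallest errors. The log2 difference between treated and untreated cultures was -0.29 ± 0.43 (SE) at day 45 and 0.03 ± 0.43 at day 90 for circZNF568:E5-E2, 0.29 ± 0.43 and -0.19 ± 0.44 for circZNF730:E3-E2, and 0.02 ± 0.44 and 0.20 ± 0.45 for circZNF766:E3-E2. These misses of the threshold do not show that the cultures were alike. The difference of the IGF-1 effect between day 45 and day 90 passed in no member (smallest adjusted p = 0.134, circZNF91:E3-E2), with 2 of 34 at an unadjusted p under 0.05.

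Summed per gene, 29 of 59 member genes reached 10 reads. From day 0 to day 45, 17 of 29 rose (58.6%) and none fell, where 61.9% of 4616 genes rose and 0.390% fell. The median fitted log2 change was 2.76 for member genes and 2.77 for all. The bounded median was 2.95 over 21 member genes and 2.36 over 4167 genes. Groups did not overlap in 9 of 29 member genes, all of them called (ZNF568, ZNF730, ZNF766, ZNF536, ZNF569, ZNF257, ZNF418, ZNF431 and ZNF426), against 62.2% of all genes. They overlapped in the other 8 called genes (ZNF91, ZNF823, ZNF841, ZNF577, ZNF254, ZNF480, ZNF880 and ZNF791). Under either of the other scalings ZNF568 and ZNF536 were the 2 genes still called, where 7.34% of all genes rose with size factors. The fitted values of ZNF766, ZNF257 and ZNF426 turned below 0 under both. Without day 45 replicate 1 the count fell to 11, and the share over all genes in that fit is not given here. ZNF426 summed to 2, 2 and 3 reads at day 0 and 11, 10 and 5 at day 45 (log2 change 1.92, adjusted p = 0.0289), against -0.22 with TMM factors and -0.54 with DESeq2 size factors.

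From day 0 to day 90, 7 of 29 member genes rose (24.1%) and none fell, where 43.4% of all genes rose and 0.672% fell. The median fitted log2 change was 1.33 against 2.14. The bounded median was 2.09 over 14 member genes and 1.86 over 3856 genes. Groups did not overlap, with day 90 higher, in 8 of 29 member genes, against 47.3% of all genes. ZNF766 was the 1 called gene whose groups overlapped. It has 1 circRNA, so its sum (adjusted p = 0.0325) is the same counts as the circle that did not pass, and its call was lost without day 0 replicate 1 or 2, without day 90 replicate 3, with no filter, in the replicate block and under both other scalings. ZNF507 did not pass in this fit. It had 1, 2 and 3 reads at day 0, 4, 1 and 0 at day 45 and 0, 0 and 0 at day 90, with an adjusted p of 0.0545 that became 0.0205 with TMM factors and 0.0162 with DESeq2 size factors. From day 45 to day 90, 3 member genes fell (ZNF254, ZNF480 and ZNF880, adjusted p = 0.0322, 0.0367 and 0.0367), where 0.238% of all genes fell and 0.0433% rose. All 3 had reads in 1 or 2 untreated day 45 libraries and in no other group, and leaving out any 1 day 90 library ended all 3 calls. IGF-1 passed in 0 member genes at either day (edgeR; 5 and 3 of 29 at an unadjusted p under 0.05, where 208 and 150 of 4616 genes were; DESeq2 also 0), against 0.0217% of all genes.

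Circles of genes whose proteins work with KRAB domains were counted beside the members. Of 20 genes of the TRIM28 corepressor and the HUSH complex, 17 gave back-splice reads and 12 were tested. From day 0 to day 45, 4 of 12 rose and none fell, where 61.9% of all genes tested rose and 0.390% fell. The median log2 change was 1.99 against 2.77 over all genes tested. The 4 were KDM1A, a histone demethylase (log2 change 3.24), TASOR and MPHOSPH8 of the HUSH complex (2.01 and 3.52, adjusted p = 1.95e-05 and 0.00572) and DNMT1, the maintenance DNA methyltransferase (1.89, adjusted p = 0.0289). With DESeq2 size factors none of the 12 rose, 1 fell and the median was -0.45. Over all genes tested, 7.34% rose, 4.44% fell and the median was 0.51 with these factors. Among 61 tested ZNF genes of other chromosomes 32 rose (median 2.67), and among 136 other tested genes of chromosome 19 it was 84 (median 2.91). A list of 21 C2H2 genes under other symbols gave 7 reads from 3 genes, ZFP14 with 5 and ZSCAN18 and ZBTB17 with 1 each. ZBTB17 is annotated on another chromosome, and none of the 21 could be tested.

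The members defined by the named transcript leave out some circles of the same genes. By their exon ends, 11 more circRNAs of chromosome 19 ZNF genes with 317 reads had a transcript name that the annotation used here lacks. ZNF577 accounted for 5 of these and 199 reads, and ZNF44 for 1 and 71 reads. With them the mean share was 0.322% at day 45 and 0.298% at day 90 with IGF-1.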

How the data were processed

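Per the labels and the study's methods, the authors sequenced ribosome-depleted total RNA, called back-splice junctions with PTESFinder (junction span 8, identity 0.85) against GENCODE release 19 on hg19, and deposited a table of counts, the raw back-splice reads per circRNA and library. Submitters' notes also name TopHat2 2.0.10, HTSeq 0.6.1, bedtools 2.17, FastQC 0.10, CASAVA and Picard. Whether the caller's strand setting separates antisense genes is not given in the sources used here. A further 16 amplicon samples were not analysed here.

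Transcripts were mapped to genes with GENCODE release 44 on hg19 coordinates. Counts of circRNAs, and sums per gene, with at least 10 summed reads were fitted over the 15 libraries with edgeR 4.0.16 (R 4.3.3; quasi-likelihood test, 1 mean per condition, sequenced reads as library size, Benjamini-Hochberg threshold 0.05). The day 90 libraries 1 and 2 took the mean of 2 listed read totals. A fold against a group at 0 used 3 reads over its 3 libraries, and counting intervals cover counting error only. Motifs were matched by letters, not by domain models. On simulated counts with 8-fold changes from day 0 to day 45, 58% of 200 changed circRNAs of 12498 were found, and 86.5% of 200 genes of 4616. The simulated day 0 level was each feature's mean over all 15 libraries. Measured back-splice reads averaged 118 RPM at day 0 and 747 RPM at day 45, and 42.8% of tested circRNAs had no read at day 0. The shares found can therefore overstate what the test finds in these data. Python 3.11.15, numpy 2.4.6, pandas 2.3.3, scipy 1.17.1, pysam 0.24.0 and matplotlib 3.10.9 were used.

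Alternatives were TMM or DESeq2 1.42.0 size factors, the DESeq2 Wald test, no filter or at least 50 reads, the listed order of day 90 totals, the replicate block and leaving out each library. The text names the 10 member genes with most reads and the top circle of each, the 10 largest called changes from day 0 to day 45 without overlap (circRNAs and genes), up to 10 calls below day 0, between day 45 and day 90 or with IGF-1, the 5 member genes highest at day 0, the 5 with most circRNAs, and ZNF254 and ZNF568, which an earlier account of these data names. Any other member or gene named, such as ZNF823, ZNF561, ZNF606, ZNF567, ZNF675 and ZNF528, was chosen after its values were seen. The members, lists (KRAB corepressors, other C2H2 genes, cell type markers) and named genes were chosen with earlier results of these data known.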

Additional observations from a re-analysis of the deposited data

How the results depend on the processing

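Scaling decided most calls. With DESeq2 size factors 1 member was called from day 0 to day 45 and 3 to day 90, and with TMM factors 4 and 3. Over all circRNAs tested, size factors left 2.57% higher to day 45 and 2.88% to day 90. With sequenced reads as library size these shares were 40.9% and 21.7%. The share over all circRNAs with TMM factors is not given here. For genes, size factors and TMM each gave 2 calls to day 45 and 3 to day 90, of which 1 was ZNF507 falling. Over all genes tested, size factors left 7.34% higher and 4.44% lower to day 45, and 7.45% higher and 4.85% lower to day 90. The day 0 to day 45 log2 change turned below 0 with size factors and TMM in circZNF766:E3-E2 (-0.59 and -0.0048), circZNF426:E4-E2 (-0.79 and -0.21), ZNF766 (-0.72 and -0.39), ZNF257 (-0.58 and -0.26) and ZNF426 (-0.54 and -0.22), and in circZNF257:E3-E2 with size factors (-0.45). TMM and size factors are computed from the back-splice counts, whereas sequenced reads as library size keep a shift shared by all circRNAs. Relative to sequenced reads, all back-splice reads were 6.33 and 4.11 times their day 0 mean at untreated day 45 and day 90. The source of that shift was not tested.

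The Wald test called 9 genes to day 45, and at least 50 reads left 11. The genes lost to that filter (ZNF254, ZNF480, ZNF577, ZNF791, ZNF841 and ZNF880) had 12 to 32 reads and were not tested under it. From day 45 to day 90, no member was called under the Wald test, size factors, TMM, at least 50 reads, no filter or the replicate block (0 each), and for genes these gave 0, apart from 1 without a filter. However, circZNF254:E3-E2, ZNF254, ZNF480 and ZNF880 lay below 50 reads and had no adjusted p in the Wald test. Neither setting thus tested those calls again. The sample labels do not say whether same-numbered libraries shared a culture batch. Their deviations correlated at -0.049 to 0.117, and at 0.034 to 0.117 for IGF-1 at day 45. Under the replicate block, 16 members were called to day 45 and 7 to day 90. With 1 library left out, members called ranged from 13 to 17 to day 45, 6 to 9 to day 90, 0 to 2 from day 45 to day 90 and 0 to 2 for IGF-1 at day 45. For genes the ranges were 11 to 16, 6 to 7 and 0 to 2. The shares over all circRNAs and all genes are not given here for the Wald test, the filters, the replicate block or left-out libraries. Whether these drops are particular to the members thus cannot be told. ZNF507 from day 0 to day 45 ranged from -1.81 to 0.49, with 0.25 without day 0 replicate 3, 0.19 without day 45 replicate 2 and 0.49 without day 45 replicate 3.

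The mean share without alike junctions was 0.103% at day 0, 0.187 and 0.220% at day 45 untreated and treated, and 0.207 and 0.186% at day 90. Without ZNF568 it was 0.236 and 0.255% at day 45 and 0.205 and 0.202% at day 90. Members found by exon ends gave 0.322% at day 45 and 0.298% at day 90 with IGF-1, and circRNAs of at least 2 reads gave 0.310% at day 45. A day 0 library held 29 to 43 member reads, which limits the precision of every fold against day 0.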
